A study of Mus musculus with 8 samples.

Results

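The genes described here are the immediate early and AP-1 genes Egr1, Egr2, Fos, Fosb, Fosl1, Jun, Junb, Ier2, Ier3 and Atf3, followed across 4 kinds of pluripotent mouse sample. A listed gene was used where the array carried a probe set annotated with that gene alone, which held for 9 of the 10 genes, each with 1 probe set, out of 22180 genes named in this way on the array. The only probe set annotated with Fosl1 is shared with Ccdc85b, a gene that overlaps it on the chromosome, so no level is given for Fosl1 itself.

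Immediate early genes are transcribed quickly, without new protein synthesis, when a growth factor, a stress or the handling of tissue activates kinases such as ERK, and many of their promoters are bound by the serum response factor and its ETS-family partners. FOS and JUN proteins pair through leucine zippers to form the transcription factor AP-1, whereas EGR proteins are zinc finger factors. In mouse embryonic stem cells, FGF acting through ERK prepares cells to leave the naive state. Some of these genes, Egr1 among them, are used as readouts of that signal, while others also respond to other signals.

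FGF-ESC are lines from day 3.5 embryos that were grown in KODMEM with 20% KSR, a serum replacement, and FGF2 on MEF, a feeder layer of mouse embryonic fibroblasts. EpiSC, the primed counterpart of naive lines, had the same medium and feeders, and the labels give day 3.5 embryos as their origin too. ESC were grown with LIF and 2i, a pair of inhibitors known to act on MEK, the kinase above ERK, and on GSK3, without MEF; the labels add 15% FCS (fetal calf serum) to their DMEM. ICM is uncultured inner cell mass from day 3.5 blastocysts, isolated by immunosurgery, which kills the outer trophectoderm. All samples were wild type C57BL/6J, with 2 arrays in each of the 4 groups, and the labels do not state whether the 2 came from separate cultures or pools of embryos. The p-values therefore reflect the spread between these arrays alone, and that spread may be technical. FGF2, feeders, KODMEM with KSR, and the absence of 2i, LIF and FCS went together in FGF-ESC and EpiSC. These cannot be told apart against ESC.

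Levels are log2 intensities of Affymetrix Mouse Gene 2.1 arrays, and a value near 4.24, the median of all deposited values, is near background. In bulk samples such as these, fewer cells of a type and less RNA per cell cannot be told apart. Of 25 named fibroblast markers, 23 were above that median on both FGF-ESC arrays, 18 on both EpiSC arrays, 11 on both ESC arrays and 13 on both ICM arrays. Their mean level was 8.43 and 7.21 on FGF-ESC replicates 1 and 2, 5.05 and 5.34 in EpiSC, 4.29 and 4.32 in ESC and 4.43 and 4.56 in ICM. The collagen gene Col1a2, a defining marker, was at 10.42 and 9.69 in FGF-ESC, 6.58 and 6.95 in EpiSC, 3.43 and 3.23 in ESC and 3.13 and 3.11 in ICM, that is, below background level in ESC and ICM. The labelled states showed in their markers: 11 naive pluripotency genes averaged 7.14 and 7.49 in FGF-ESC, 4.64 and 5.11 in EpiSC, 7.84 and 7.85 in ESC and 7.62 and 7.61 in ICM, and Fgf5, a primed epiblast growth factor, was above the median of all values in EpiSC alone, at 5.72 and 6.07. The mean of 9 trophectoderm markers was 5.92 and 5.93 on the ICM arrays and 4.86 to 5.21 on those of the cultured groups.

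RefSeq promoter windows (build GRCm38.p6) were searched for 7 of the 9 genes. Those of Egr1 and Ier2 were not searched. The 250 bases before each start site were searched on both strands for a CArG box, the core of the serum response element, named here without letters, and for 6 sets of letters. The AP-1 site was TGANTCA. The CRE was TGACGTCA. The short CRE core, which lies inside the CRE, was TGACG. The EGR site was GCGNGGGCG, the ETS core CCGGAA and the TATA box TATAAA. The CArG box was found in 1.47% of all 32851 promoter windows of that length, the AP-1 site in 6.75%, the CRE in 1.55%, the short CRE core in 17.8%, the EGR site in 4.7%, the ETS core in 12% and the TATA box in 12.4%. Upstream sequences of Fos and Fosb are shown because both genes had their highest level in FGF-ESC and the next in EpiSC, that of Jun because its ICM and EpiSC arrays overlapped while ESC was lowest, and that of Ier3 because only its FGF-ESC arrays stood apart. Capitals mark the matches:
Fos, chr12:85473640-85473889, plus strand: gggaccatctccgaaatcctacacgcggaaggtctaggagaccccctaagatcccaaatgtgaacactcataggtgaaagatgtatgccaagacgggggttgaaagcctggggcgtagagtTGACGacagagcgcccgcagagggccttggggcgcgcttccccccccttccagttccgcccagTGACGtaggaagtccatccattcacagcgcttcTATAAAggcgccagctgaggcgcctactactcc
Fosb, chr7:19310046-19310295, minus strand: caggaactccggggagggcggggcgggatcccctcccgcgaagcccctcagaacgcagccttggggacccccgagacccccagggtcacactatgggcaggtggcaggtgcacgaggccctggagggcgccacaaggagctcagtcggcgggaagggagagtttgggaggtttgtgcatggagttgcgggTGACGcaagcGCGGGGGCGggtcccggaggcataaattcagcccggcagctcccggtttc
Jun, chr4:95052223-95052472, minus strand: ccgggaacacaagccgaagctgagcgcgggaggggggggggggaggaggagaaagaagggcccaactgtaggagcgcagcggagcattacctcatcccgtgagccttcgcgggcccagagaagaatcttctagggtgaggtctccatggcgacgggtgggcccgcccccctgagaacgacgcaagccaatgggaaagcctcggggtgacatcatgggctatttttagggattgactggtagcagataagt
Ier3, chr17:35821463-35821712, plus strand: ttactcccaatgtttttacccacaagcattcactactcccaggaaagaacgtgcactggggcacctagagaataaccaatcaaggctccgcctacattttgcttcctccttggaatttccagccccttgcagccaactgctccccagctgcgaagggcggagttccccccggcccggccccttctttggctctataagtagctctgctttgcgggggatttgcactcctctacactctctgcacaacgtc

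Counting the base before the start site as -1, Fos had TGACG at -129 to -125 and at -66 to -62 and TATAAA at -33 to -28. Fosb had TGACG at -60 to -56 with an EGR site just downstream, at -50 to -42. Of the 7 genes, 5 had a short CRE core (also Egr2, Junb and Atf3) and 0 had a full AP-1 site or a full CRE. Egr2 alone had a CArG box, in 4 of the windows of its 5 start sites. The 2 different boxes are shown in capitals, since a CArG box is the core of the serum response element:
Egr2, chr10:67537484-67537513, plus strand: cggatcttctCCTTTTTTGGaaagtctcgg
Egr2, chr10:67537787-67537816, plus strand: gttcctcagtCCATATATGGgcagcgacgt
The upstream windows of Jun and Ier3 held no exact match to any of these sites. Variants that differ from the letters given were not searched in any gene, so their absence is not shown. A match in a window is a description and not evidence of binding, and elements farther upstream were not searched.

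Against ESC, 8 of the 9 genes rose in FGF-ESC and 0 fell. A gene passed the threshold if limma's adjusted p was below 0.05 and the groups were 1 or more apart on the log2 scale. Of all 13597 tested genes, 6.21% passed in this comparison, 5.27% as rising and 0.934% as falling. The median log2 fold change of the 9 genes was 2.36, against -0.06 over all tested genes, and the 25 fibroblast markers beside them differed by a median of 3.30; their part in the result was not tested. The comparison addresses how lines kept in FGF2 differ from ESC of the standard naive kind. The plot of levels by array shows the 9 genes on a common axis.

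**Figure D1:**
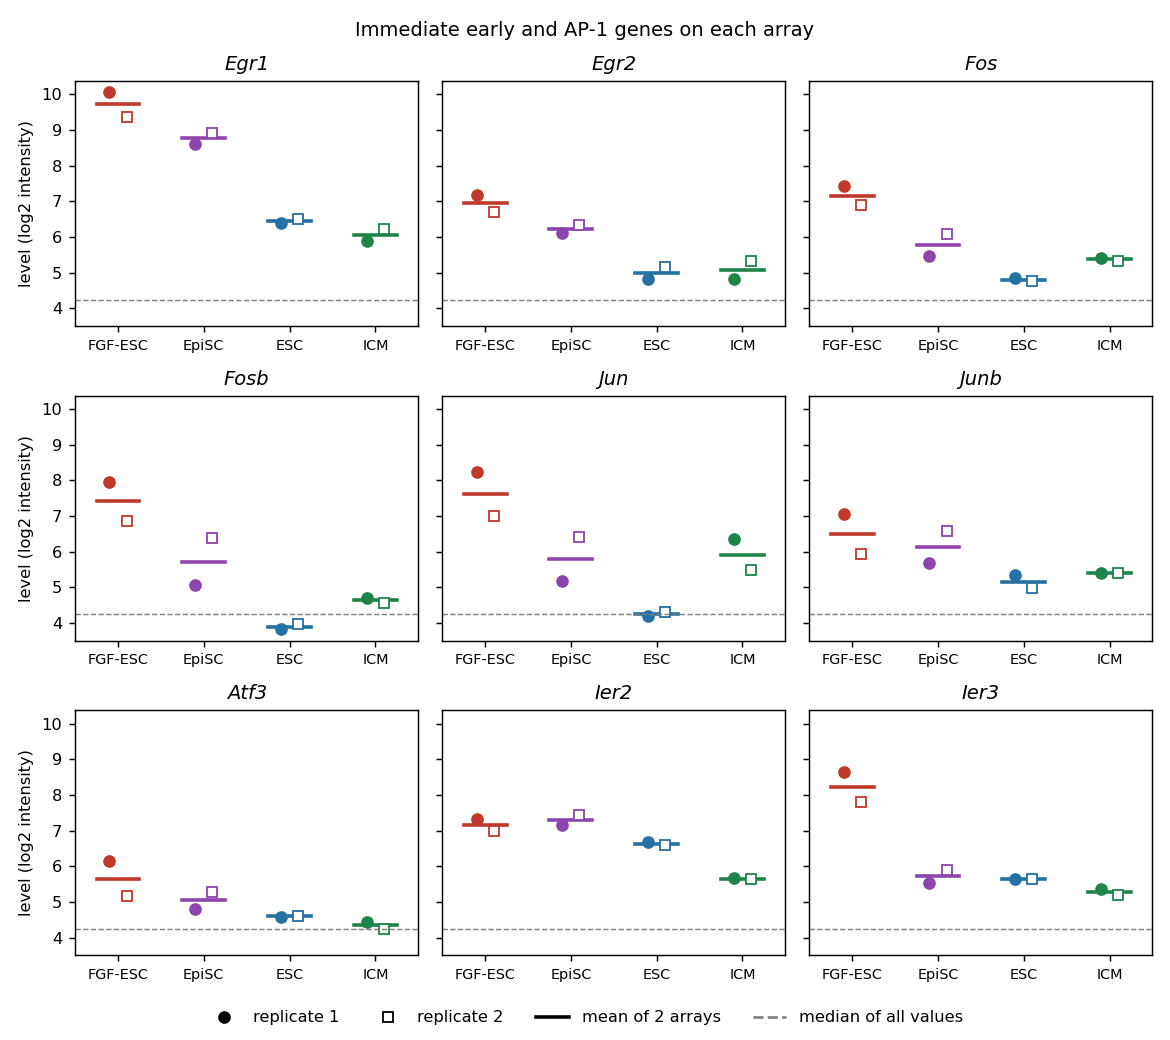
Level (log2 intensity, vertical axis) of each of the 9 genes on every array, with groups along the horizontal axis; filled circles are replicate 1, open squares replicate 2, bars the mean of the 2 arrays, and the dashed line the median of all values, 4.243. The FGF-ESC arrays of Egr1, at 10.06 and 9.37, and Ier3, at 8.65 and 7.79, lie above all other arrays, while the ESC arrays of Fosb and Jun lie at or near the dashed line.

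Both EGR genes were higher in the FGF2 cultures than in ESC. Egr1, a zinc finger factor that is a standard readout of ERK activity, was at 10.06 and 9.37 in FGF-ESC, 8.61 and 8.92 in EpiSC, 6.39 and 6.5 in ESC and 5.90 and 6.23 in ICM. All arrays of both FGF2 cultures were thus above all ESC and ICM arrays, and the ESC arrays above the ICM arrays by a small margin. Egr1 rose in FGF-ESC relative to ESC by 3.27 ± 0.23 (log2, SE, n = 2 arrays per group, limma adjusted p = 0.000149), a 9.67-fold difference in intensity. It also rose in EpiSC relative to ESC, by 2.32 ± 0.23 (adjusted p = 0.000305). Between ESC and ICM the difference was 0.38 ± 0.23 (adjusted p = 0.25), which did not pass.

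Egr2, a relative of Egr1 that is best known from hindbrain and myelinating cells, also had its highest levels in FGF-ESC and its next in EpiSC. Its levels were 7.19 and 6.70 in FGF-ESC, 6.11 and 6.33 in EpiSC, 4.83 and 5.15 in ESC and 4.82 and 5.34 in ICM, so that the ESC and ICM arrays overlapped. It rose by 1.95 ± 0.23 in FGF-ESC (adjusted p = 0.00155) and by 1.23 ± 0.23 in EpiSC (adjusted p = 0.00684) relative to ESC. The rise in EpiSC was lost when ESC replicate 1 (adjusted p = 0.0745) or EpiSC replicate 2 (0.0595) was left out, in a range of 0.000588 to 0.0745 over its alternatives.

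Among the FOS genes, whose proteins bind DNA only with a JUN or similar partner, the rise in FGF-ESC over ESC passed for both genes measured. Fos was at 7.43 and 6.89 in FGF-ESC, 5.46 and 6.10 in EpiSC, 4.84 and 4.76 in ESC and 5.42 and 5.34 in ICM. The FGF-ESC arrays stood above all others and the ESC arrays below all others. Fos rose by 2.36 ± 0.23 in FGF-ESC relative to ESC (adjusted p = 0.000711), a 5.14-fold difference. In EpiSC the difference from ESC was 0.98 ± 0.23 (adjusted p = 0.0207), just under the fold minimum, and it passed without EpiSC replicate 1 (1.3).

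Fosb, a FOS-family gene that also encodes a shortened variant in brain, had the largest fold of the 9 genes in this comparison. It was at 7.96 and 6.87 in FGF-ESC, 5.07 and 6.37 in EpiSC, 3.82 and 3.96 in ESC and 4.71 and 4.56 in ICM. Both ESC arrays were under the median of all values, so the fold of 11.5 (log2 3.53 ± 0.44, adjusted p = 0.00198) depends on that floor. The EpiSC arrays of Fosb differed from each other by 1.31. Its rise in EpiSC relative to ESC, 1.83 ± 0.44 (adjusted p = 0.0211), was lost when ESC replicate 1 (0.133), ESC replicate 2 (0.104) or EpiSC replicate 2 (0.119) was left out, in a range of 0.00575 to 0.133.

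The JUN genes differed from each other. Jun, the partner that can also pair with itself, was at 8.22 and 6.99 in FGF-ESC, 5.18 and 6.41 in EpiSC, 4.20 and 4.31 in ESC and 6.35 and 5.48 in ICM. The ESC arrays lay at background level and below all others, whereas the EpiSC and ICM arrays overlapped. Jun rose in FGF-ESC relative to ESC by 3.35 ± 0.49 (adjusted p = 0.00436), a 10.2-fold difference that depends on that background level, and fell in ESC relative to ICM (log2 difference -1.66 ± 0.49, adjusted p = 0.0329). The rise was lost when ESC replicate 1 was left out (adjusted p = 0.0526, range over its alternatives 0.000626 to 0.0526). The fall did not pass without ESC replicate 1 (0.148), ESC replicate 2 (0.122) or ICM replicate 1 (0.188), in a range of 0.00335 to 0.188. In EpiSC, Jun differed from ESC by 1.54 ± 0.49 (adjusted p = 0.0638), which did not pass, although it did without EpiSC replicate 1 (0.0452), in a fit of these groups alone (0.0118) or without either FGF-ESC array (0.0218); the range was 0.0118 to 0.355.

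Junb, a JUN protein that often restrains the activity of JUN itself, changed less. Its levels were 7.06 and 5.94 in FGF-ESC, 5.69 and 6.59 in EpiSC, 5.35 and 4.97 in ESC and 5.39 and 5.39 in ICM. The FGF-ESC and EpiSC arrays overlapped, and both ranges were above the ESC and ICM arrays. Junb rose by 1.34 ± 0.38 in FGF-ESC relative to ESC (adjusted p = 0.0498), at the edge of the threshold. Atf3, a stress-induced factor of the ATF family that pairs with JUN proteins, was at 6.14 and 5.17 in FGF-ESC, 4.81 and 5.28 in EpiSC, 4.59 and 4.61 in ESC and 4.44 and 4.25 in ICM. Only FGF-ESC replicate 1 was above 5.28 among these arrays. Atf3 rose by 1.06 ± 0.29 in FGF-ESC relative to ESC (adjusted p = 0.0444).

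The calls of Junb and Atf3 against ESC were the least secure of the 8. Both were lost without FGF-ESC replicate 1 (log2 fold change 0.78 and adjusted p = 0.194 for Junb, 0.57 and 0.128 for Atf3), without ESC replicate 1 (0.158 and 0.206), without ESC replicate 2 (0.251 and 0.186), without either EpiSC array (0.0509 and 0.0644) and without either ICM array (0.0792 and 0.068). They were also lost with no filter on low values (0.0669 and 0.0583) and in a fit of these groups alone (0.0976 and 0.108). The adjusted p ranged from 0.00382 to 0.251 for Junb and from 0.000957 to 0.206 for Atf3 over the alternatives.

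The IER genes encode short proteins named only for their early induction, and they had patterns of their own. Ier2 was at 7.32 and 6.98 in FGF-ESC, 7.16 and 7.43 in EpiSC, 6.68 and 6.59 in ESC and 5.67 and 5.63 in ICM. It was therefore high in all cultured cells and low in ICM, and it was the gene that did not pass in FGF-ESC against ESC, with 0.52 ± 0.15 (adjusted p = 0.0546). Ier3, an apoptosis-related gene that is also induced by NF-kappaB signalling, was at 8.65 and 7.79 in FGF-ESC, 5.54 and 5.89 in EpiSC, 5.63 and 5.65 in ESC and 5.37 and 5.20 in ICM. Only the FGF-ESC arrays stood out, and the EpiSC and ESC arrays overlapped. Ier3 rose by 2.59 ± 0.26 in FGF-ESC relative to ESC (adjusted p = 0.000711), and differed by 0.08 ± 0.26 between EpiSC and ESC (adjusted p = 0.888).

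Between FGF-ESC and EpiSC, which had the same kind of medium and feeders, 4 of the 9 genes rose in FGF-ESC and 0 fell. Over all tested genes, 7.28% passed, of which rising genes made up 5.26% of those tested and falling genes 2.02%. The median of the 9 genes was 0.95, against -0.04 over all tested genes, and the fibroblast markers differed by a median of 2.71. Ier3 rose by 2.51 ± 0.26 (adjusted p = 0.000475) and Fos by 1.38 ± 0.23 (adjusted p = 0.00492), and both passed under all 17 alternatives tried. The ERK readout Egr1 had a difference too small to pass, 0.95 ± 0.23 (adjusted p = 0.0233), and Egr2, at 0.72 ± 0.23 (adjusted p = 0.0593), did not pass. Junb differed by 0.36 ± 0.38, Atf3 by 0.61 ± 0.29 and Ier2 by -0.14 ± 0.15, each with arrays that overlapped between the groups.

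Fosb (1.70 ± 0.44, adjusted p = 0.0288) and Jun (1.80 ± 0.49, adjusted p = 0.0357) also rose in FGF-ESC relative to EpiSC, but these calls turned on single arrays. Fosb did not pass without FGF-ESC replicate 1 (0.108), EpiSC replicate 1 (0.168), either ESC array (0.0605) or either ICM array (0.0519), nor in a fit of these groups alone (0.119), in a range of 0.00624 to 0.168. Jun did not pass without FGF-ESC replicate 1 (0.138), EpiSC replicate 1 (0.23) or either ESC array (0.0714), nor in a fit of these groups alone (0.109), in a range of 0.00774 to 0.23. Without FGF-ESC replicate 2, Egr1 (1.3) and Atf3 (1.09) passed as well. The count was 2 without FGF-ESC replicate 1 and 6 without FGF-ESC replicate 2.

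**Figure D2:**
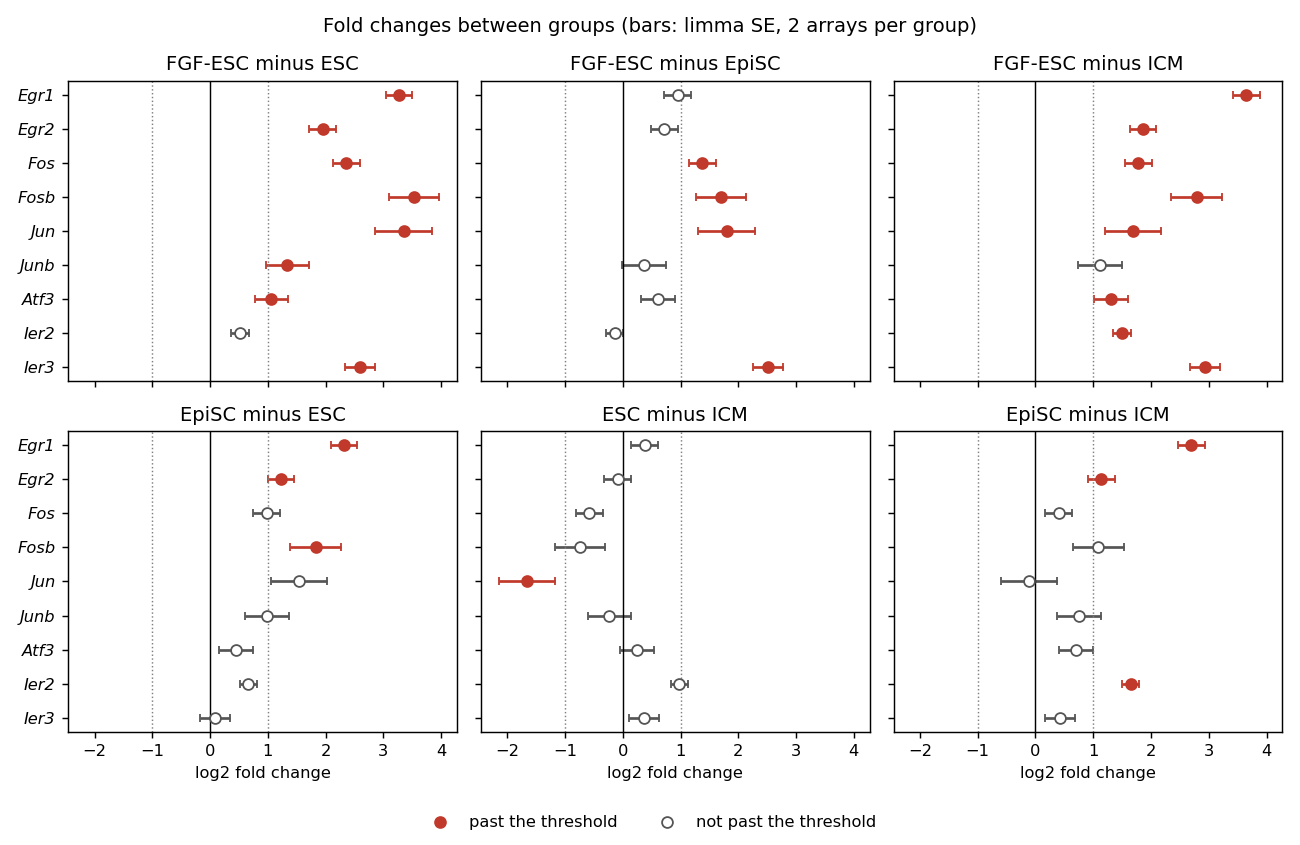
Log2 fold change of each of the 9 genes (horizontal axis) in the 6 comparisons, with limma's SE as bars and 2 arrays per group; filled red points passed the threshold and dotted lines mark a log2 fold change of 1 in either direction. Of the 9 genes, 8 passed in FGF-ESC against ESC and 8 against ICM, 4 against EpiSC, 3 in EpiSC against ESC, 3 in EpiSC against ICM and 1, Jun, in ESC against ICM.

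Between EpiSC and ESC, the primed and the naive line, 3 of the 9 genes rose in EpiSC and 0 fell: Egr1, Egr2 and Fosb, with the values given above. Over all tested genes, 7.36% passed, with 3.86% rising and 3.5% falling. The median of the 9 genes was 0.98, against -0.01 over all tested genes, and fibroblast markers differed by a median of 0.72. This comparison and that of FGF-ESC with ESC share the ESC arrays, and for Egr1 the log2 fold changes were 3.27 in FGF-ESC and 2.32 in EpiSC, while for Ier3 they were 2.59 and 0.08. Ier2 had a low adjusted p but too small a difference (0.66 ± 0.15, adjusted p = 0.0179), and Junb (0.98 ± 0.38, adjusted p = 0.121) and Atf3 (0.45 ± 0.29, adjusted p = 0.35) did not pass.

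ICM differed from every cultured group in culture itself, in its isolation by immunosurgery and in its RNA column kit. In all comparisons with ICM, these cannot be told apart from cell type. Against uncultured ICM, FGF-ESC again had 8 genes that rose and 0 that fell. Over all tested genes 14.8% passed (9.57% rose and 5.22% fell), the median of the 9 genes was 1.78 against -0.02 over all tested genes, and fibroblast markers differed by a median of 3.26. Egr1 rose by 3.65 ± 0.23 (adjusted p = 1.6e-05), Ier3 by 2.94 ± 0.26 (adjusted p = 7.64e-05), Fosb by 2.79 ± 0.44, Egr2 by 1.86 ± 0.23, Fos by 1.78 ± 0.23 and Ier2 by 1.5 ± 0.15. Junb, at 1.11 ± 0.38 (adjusted p = 0.0521), did not pass, but did without FGF-ESC replicate 2 (0.00425) or either EpiSC array (0.044), in a range of 0.00425 to 0.241. Jun (1.69 ± 0.49, adjusted p = 0.0278) did not pass without FGF-ESC replicate 1 (0.126), ICM replicate 2 (0.164) or either ESC array (0.0529), in a range of 0.00602 to 0.164. Atf3 (1.31 ± 0.29, adjusted p = 0.00868) did not pass without FGF-ESC replicate 1, where its log2 fold change was 0.82, or without ICM replicate 2 (adjusted p = 0.0551, range 0.000223 to 0.0551).

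In EpiSC, Egr1 rose relative to ICM by 2.70 ± 0.23 (adjusted p = 5.07e-05), Ier2 by 1.65 ± 0.15 (adjusted p = 7.85e-05) and Egr2 by 1.14 ± 0.23 (adjusted p = 0.00477), which makes 3 genes that rose and 0 that fell, where 15.3% of all tested genes passed, 8.48% rising and 6.8% falling. The median of the 9 genes was 0.75, against 0.01 over all tested genes. Beside it, the 25 fibroblast markers differed by a median of 0.33 and 8 tested primitive endoderm markers by a median of -1.14; the part of these cell types in the result was not tested. Egr2 was under the fold minimum without ICM replicate 1 (0.88). Fosb, at 1.09 ± 0.44 (adjusted p = 0.0837), passed without EpiSC replicate 1 (0.0178) or either FGF-ESC array (0.0335), in a range of 0.0178 to 0.475. Between ESC and ICM, Jun was the single gene past the threshold, and it fell, where 11.4% of all tested genes passed, 5.82% rising and 5.57% falling. The median of the 9 genes was -0.09, against 0.02 over all tested genes. Ier2 differed by 0.98 ± 0.15 (adjusted p = 0.00169), just short of the fold required, and it passed when ESC replicate 2 (adjusted p = 0.0157) or ICM replicate 1 (0.0112) was left out, in a range of 0.000506 to 0.0226. The order of group means was therefore FGF-ESC, EpiSC, ESC, ICM for Egr1, Ier3 and Atf3, but neighbours in it often did not differ. For Egr1 the step between EpiSC and ESC passed, for Ier3 that between FGF-ESC and EpiSC, and for Atf3 none.

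Within FGF-ESC and within EpiSC, the 9 genes all differed in the same direction between the 2 arrays. On FGF-ESC replicate 1, 9 of the 9 genes were higher than on replicate 2, by 0.34 to 1.23 with a median of 0.86, while 46.6% of all tested genes were higher there. In EpiSC it was replicate 2 on which 9 of the 9 genes were higher, by 0.23 to 1.31; the median of replicate 1 minus replicate 2 was -0.47, and 42% of all tested genes were higher on replicate 1. In ESC 3 genes were higher on replicate 1 and 6 on replicate 2, with differences of -0.32 to 0.38. In ICM 7 were higher on replicate 1 and 2 on replicate 2, with differences of -0.52 for Egr2 to 0.87 for Jun. Fibroblast markers moved the same way: 23 of 23 tested markers were higher on FGF-ESC replicate 1 (median difference 1.18), and 19 of 23 were higher on EpiSC replicate 2 (median of replicate 1 minus replicate 2, -0.28). All 11 naive pluripotency markers were higher on replicate 2, both in FGF-ESC, opposite to the 9 genes, and in EpiSC, as the 9 genes were. Their median of replicate 1 minus replicate 2 was -0.26 in FGF-ESC and -0.41 in EpiSC. The part of either marker list in these gaps was not tested. The SE of each fold change pools the spread of the 4 groups and can therefore understate the spread in FGF-ESC. The SDs of Fosb, Jun and Junb there were 0.77, 0.87 and 0.79, against 0.10, 0.08 and 0.27 in ESC. Those of Atf3, Ier3 and Egr1 were 0.68, 0.61 and 0.49 in FGF-ESC, against 0.01, 0.02 and 0.07 in ESC.

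**Figure D3:**
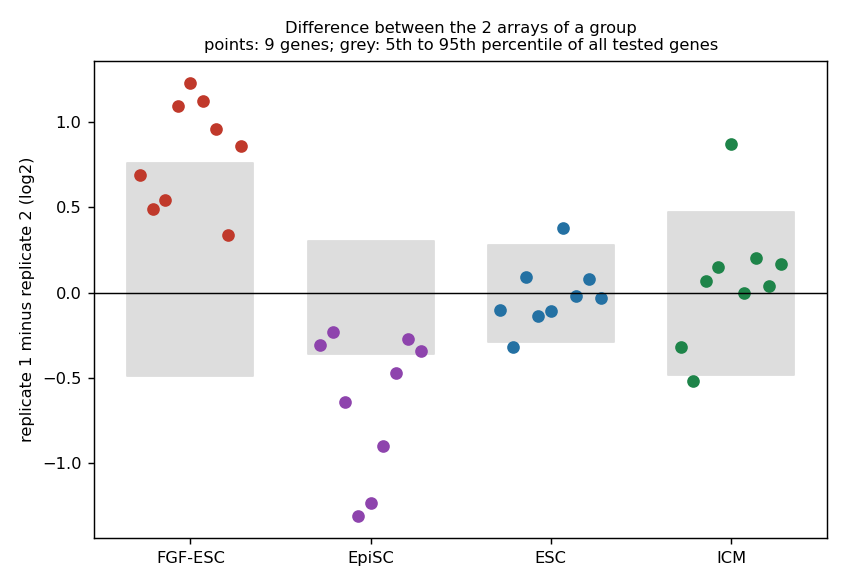
Replicate 1 minus replicate 2 (log2, vertical axis) for each of the 9 genes (points) in each group, with the 5th to 95th percentile of all 13597 tested genes in grey. All points are above 0 in FGF-ESC, from 0.34 to 1.23, and below 0 in EpiSC, from -1.31 to -0.23.

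Genes related to the 9 were grouped in lists, with the 9 genes left out of each. Over all tested genes, 5.27% rose and 0.934% fell in FGF-ESC relative to ESC, and 3.86% rose and 3.5% fell in EpiSC relative to ESC. Of 34 tested other immediate early genes, 16 rose and 0 fell in FGF-ESC relative to ESC, with a median of 0.91, and 5 rose and 2 fell in EpiSC relative to ESC, with a median of 0.34. Ccn1, a secreted matrix protein, was at 8.85 in FGF-ESC, 8.60 in EpiSC and 5.68 in ESC, and rose by 3.17 ± 0.36 (adjusted p = 0.00133) and 2.92 ± 0.36 (adjusted p = 0.00084) in FGF-ESC and EpiSC over ESC. Its relative Ccn2 rose in EpiSC by 1.36 ± 0.16 and had 0.91 ± 0.16 in FGF-ESC. With its probe sets averaged, these log2 fold changes were 0.91 and 0.61, so the rise in EpiSC did not pass. The growth regulator Myc rose by 1.15 ± 0.18 in FGF-ESC and by 1.79 ± 0.18 in EpiSC; the first did not pass without FGF-ESC replicate 1 (0.88), ESC replicate 1 (adjusted p = 0.0647) or ESC replicate 2 (adjusted p = 0.0557). Klf2, both an immediate early gene in other cells and a naive pluripotency factor, went the other way in EpiSC, with a log2 fold change of -1.75 ± 0.21, and had -0.19 ± 0.21 in FGF-ESC. Like the 9 genes, 29 of the 34 were higher on FGF-ESC replicate 1 and 27 of the 34 on EpiSC replicate 2.

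The ERK feedback genes encode products that damp the pathway that induces them. Of 12 such genes 4 rose and 0 fell in FGF-ESC relative to ESC (median 0.80), 4 rose and 0 fell in EpiSC relative to ESC (median 0.65), and 0 rose and 1 fell in FGF-ESC relative to EpiSC (median -0.03). The ERK phosphatase Dusp6 was at 9.18 and 9.06 in FGF-ESC, 9.75 and 9.65 in EpiSC, 7.50 and 7.57 in ESC and 8.11 and 8.01 in ICM. Unlike Egr1, it was thus higher on the EpiSC than on the FGF-ESC arrays. Dusp4, a nuclear relative, rose by 1.09 ± 0.28 in FGF-ESC and 1.6 ± 0.28 in EpiSC over ESC, and the ETS factor Etv1 by 2.45 ± 0.30 in EpiSC, against 0.95 ± 0.30 in FGF-ESC, which did not pass (adjusted p = 0.0679). The pathway inhibitor Spry4 rose by 1.37 ± 0.22 in FGF-ESC and had 0.68 ± 0.22 in EpiSC. The first value of Dusp4 did not pass without either ESC array (adjusted p = 0.156 and 0.184), either EpiSC array (0.0527), either ICM array (0.0584) or FGF-ESC replicate 1 (0.088), nor in a fit of these groups alone (0.0981), and that of Spry4 did not pass without either ESC array (0.0674 and 0.0581) or FGF-ESC replicate 1, where it was just under the fold minimum. Dusp4 in EpiSC did not pass without ESC replicate 2 (0.0512).

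Factors that partner or regulate the 9 genes were counted in 3 lists. Of 11 tested other AP-1 and bZIP partners 2 rose and 0 fell in FGF-ESC relative to ESC, with a median of 0.07. They were the FOS relative Fosl2 (1.28 ± 0.26) and the stress factor Ddit3 (1.34 ± 0.22); both had under 0.2 in either direction between EpiSC and ESC, and neither passed in FGF-ESC without an ESC array (adjusted p = 0.1 and 0.108 for Fosl2, 0.0761 and 0.0624 for Ddit3) or, for Fosl2, without FGF-ESC replicate 1 (0.83) or when FGF-ESC and ESC were fitted alone (adjusted p = 0.0705). Of the 4 EGR partners, Egr3, Egr4 and the EGR repressors Nab1 and Nab2, 0 passed in FGF-ESC or EpiSC against ESC. Of 18 upstream regulators 1 rose in FGF-ESC, the ETS factor Elk3 (2.13 ± 0.21, adjusted p = 0.000711), and 1 rose in EpiSC, Srf, the serum response factor (1.05 ± 0.23, adjusted p = 0.0149). Srf was at 6.81 and 6.85 in FGF-ESC, 7.07 and 7.13 in EpiSC, 6.18 and 5.93 in ESC and 6.89 and 7.67 in ICM, so that ESC was lowest; its call in EpiSC was lost without any 1 of the ESC arrays (adjusted p = 0.062 and 0.12) or EpiSC arrays (0.0799 and 0.0892).

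Known targets of AP-1 include matrix and adhesion genes that fibroblasts also express. Of 12 tested, 9 rose and 0 fell in FGF-ESC relative to ESC (median 2.88), 8 rose and 0 fell relative to EpiSC (median 3.04), and 1 rose and 1 fell in EpiSC relative to ESC (median 0.19). Among all tested genes, 5.26% rose and 2.02% fell in FGF-ESC relative to EpiSC. In ESC the means of Mmp3, Dcn, Cd44 and Fgf7 were all under the median of all values, so the size of their differences from ESC depends on that floor. Mmp10, Mmp13, Cd44 and Fgf7 were above that median on the FGF-ESC arrays alone. They could be tested only because they were high there, so their rises are no support for the counts and medians above. The matrix protease Mmp3 was at 10.21 and 9.44 in FGF-ESC, 3.73 and 4.87 in EpiSC, 3.44 and 3.23 in ESC and 3.41 and 3.35 in ICM, and rose by 6.49 ± 0.36 in FGF-ESC over ESC. Fgf7, a growth factor made by mesenchyme, rose by 3.21 ± 0.25, the hyaluronan receptor Cd44 by 2.76 ± 0.39 and the proteoglycan Dcn, which is also on the fibroblast list, by 6.66 ± 0.32. Dcn was the gene of this list that rose in EpiSC over ESC, by 1.65 ± 0.32, and it did not pass there without ESC replicate 1 (adjusted p = 0.083), ESC replicate 2 (0.0519) or EpiSC replicate 2 (0.0502). On the FGF-ESC arrays, 12 of the 12 genes were higher on replicate 1, as the fibroblast markers were; the part of the fibroblast level in these values was not tested.

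Heat shock genes, which are induced together with immediate early genes when tissue is stressed, were also counted. Of 12 tested, 1 rose and 0 fell in FGF-ESC relative to ESC, with a median of -0.01. Over all tested genes, 6.21% passed there in either direction. Hspa1a and Hspa1b had log2 fold changes of 0.61 and 0.92 and Hspb1 had -0.41, none of which passed. On FGF-ESC replicates 1 and 2, Hspa1a was at 5.62 and 4.9 and Hspa1b at 6.76 and 5.03. Of the 12 genes, 6 were higher on FGF-ESC replicate 1 and 6 on replicate 2. In EpiSC relative to ESC 1 rose and 1 fell, with a median of 0.12. The gene that rose in both was the co-chaperone Bag3, at 8.03 and 6.94 in FGF-ESC, 7.05 and 7.33 in EpiSC, 5.22 and 5.24 in ESC and 7.74 and 8.13 in ICM. Only the ESC arrays of Bag3 were low. The small heat shock protein Hspb1 fell in EpiSC by 1.71 on the log2 scale (adjusted p = 0.000514). In FGF-ESC relative to ICM, 2 of the 12 rose and 0 fell, with a median of -0.09, where 9.57% of all tested genes rose. They were Hspb1 (2.16 ± 0.19, limma adjusted p = 7.96e-05) and Hspa1b (1.43 ± 0.45, adjusted p = 0.0371).

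**Figure D4:**
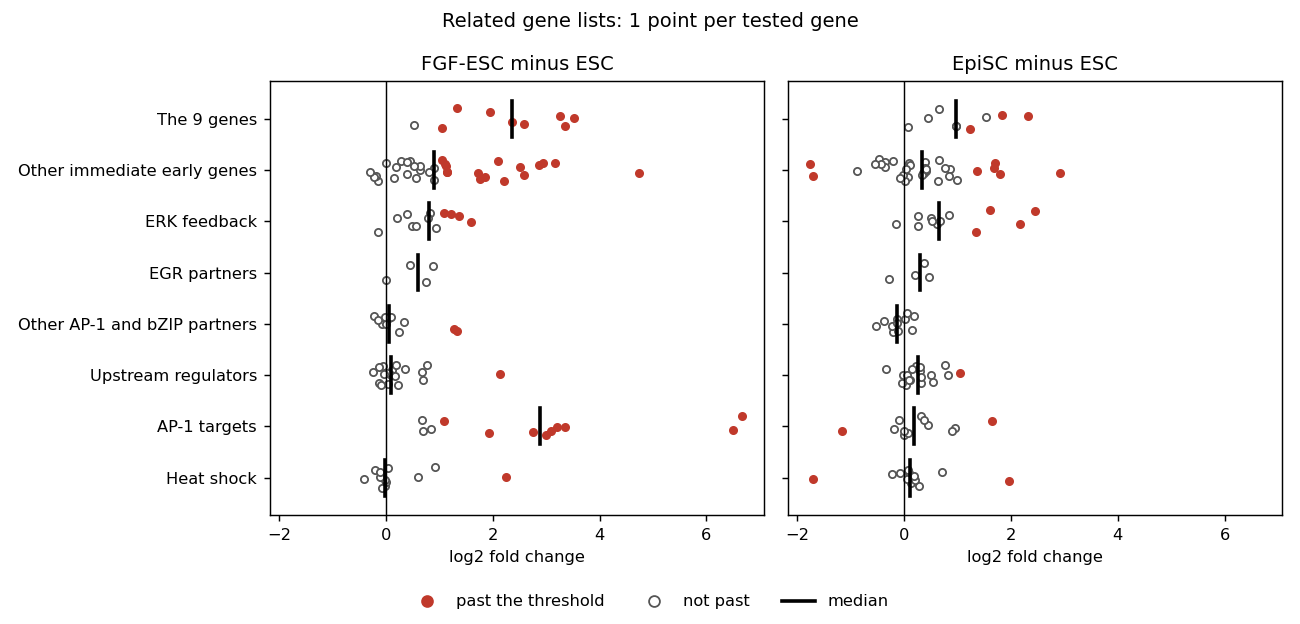
Log2 fold change (horizontal axis) of each tested gene of the 7 related lists and of the 9 genes, in FGF-ESC against ESC (left) and EpiSC against ESC (right); filled red points passed the threshold and black bars are list medians. AP-1 targets have a median of 2.88 on the left and 0.19 on the right, while ERK feedback genes have 0.80 and 0.65. Some AP-1 targets, such as Mmp13, were tested only because they were high in FGF-ESC.

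For each of the 9 genes, the other 13588 tested genes were ranked by the root mean square difference of their log2 levels from it over the 8 arrays, after each gene was centred on its own mean; the value is a description of likeness over arrays that fall into 4 groups. Closest to Egr1 were the protease subunit Capn2 (0.28), the scavenger receptor Colec12 (0.28) and the calcium-binding S100a6 (0.32), where Egr1 itself varied with an SD of 1.55 over the arrays. Closest to Fosb was another immediate early gene, the RNA-binding Zfp36 (0.33), which was at 9.73 and 8.64 in FGF-ESC, 7.60 and 8.30 in EpiSC, 6.38 and 6.11 in ESC and 6.35 and 6.72 in ICM. The annexin Anxa2 was the closest to Jun (0.37) and the third to Fosb (0.42). Closest to Ier3 were Fkbp7 (0.15), the chemokine Ccl5 (0.16) and Gng8 (0.17), to Ier2 Dcbld2 (0.10), Klhl9 (0.11) and Hdac5 (0.12), and to Atf3 Fkbp14 (0.09), the apoptosis regulator Cflar (0.13) and the interferon factor Irf1 (0.14). Among the 9 genes themselves the closest pair was Junb and Atf3 (0.26), followed by Egr2 and Fos (0.37). The measure is not scaled to a gene's own variation, so genes that varied little come out closer. Junb and Atf3 had SDs of 0.66 and 0.57 over the arrays, while Fosb and Jun, 0.51 from each other, had 1.39 and 1.28.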

How the data were processed

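Each of 8 arrays gave 1 log2 intensity for each of 41345 probe sets, which the authors computed with Expression Console 1.3.1 before deposit, per the submitters' processing notes. How it summarised probes and corrected background is not stated, and log2 was inferred from the range of values. Nothing was normalized again. Labelling used NuGEN amplification kits, and ICM had another RNA column kit than the cultured cells, per the labels. Of the probe sets, 23521 had 1 gene in the platform annotation, 1814 several and 16010 none. Where a gene had several probe sets, the one with the highest mean was used, and a gene was tested if 2 or more arrays exceeded 4.243, the overall median (13597 of 22180 genes, and all 9 described).

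A means model over all 8 arrays was fitted with limma 3.58.1 in R 4.3.3 (4 residual degrees of freedom), with Benjamini-Hochberg adjustment over all tested genes in each of 6 comparisons. Every SE and adjusted p is limma's. The code was tested on simulated data. The genes and related lists were chosen with earlier results of these data known. Related genes were named if they passed in FGF-ESC or EpiSC against ESC, up to 4 a list by smallest adjusted p, and the 3 genes most like each of the 9 were ranked. The build behind the probe sets is unknown here, so coordinates stand only beside RefSeq sequences. The number of arrays limits the precision.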

Additional observations from a re-analysis of the deposited data

How the results depend on the processing

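The number of the 9 genes past the threshold was recomputed under 17 alternatives: no filter on low values, a filter at the 75th percentile, probe sets apart or averaged, quantile normalization, fits of the 2 groups alone, eBayes with trend and robust, no fold minimum, a replicate block, and each of the 8 arrays left out. Leaving out 1 array gave 5 to 8 genes in FGF-ESC against ESC (8 with all arrays), 2 to 6 against EpiSC (4), 6 to 9 against ICM (8), 1 to 5 in EpiSC against ESC (3), 2 to 4 in EpiSC against ICM (3) and 0 to 1 in ESC against ICM (1). The fit of FGF-ESC and EpiSC alone gave 2, where fewer arrays estimate the spread, and dropping the fold minimum gave 5 in EpiSC against ESC and 2 in ESC against ICM. Over the 912 fold changes of single genes recomputed, 834 kept their direction and side of the threshold, 49 lost it, 21 gained it and 8 changed sign. The sign changes, like those of 3 related genes, were all of differences that did not pass, with 1 array left out. Such fits gave -0.20 to 0.92 for Junb (-0.20 without FGF-ESC replicate 1, -0.09 without EpiSC replicate 1) and -0.31 to 0.02 for Ier2 (0.02 without FGF-ESC replicate 2) in FGF-ESC against EpiSC. They gave -0.10 to 0.25 for Ier3 in EpiSC against ESC (-0.10 without EpiSC replicate 2), -0.35 to 0.17 for Egr2 in ESC against ICM (0.07 without ESC replicate 1, 0.17 without ICM replicate 2) and -0.73 to 0.50 for Jun in EpiSC against ICM (0.50 without EpiSC replicate 1, 0.32 without ICM replicate 1). They gave -0.46 to 0.09 for Klf2 in FGF-ESC against ESC (0.09 without FGF-ESC replicate 1) and, in EpiSC against ESC, -0.11 to 0.15 for Fosl2 (-0.11 without EpiSC replicate 2, -0.02 without ESC replicate 2) and -0.43 to 0.16 for Ddit3 (0.16 without EpiSC replicate 1). The log2 fold change of Ccn2 in EpiSC against ESC was 0.91 with probe sets averaged, under the fold minimum. The cause was not tested.

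Over all genes, the 844 past the threshold in FGF-ESC against ESC became 526 in a fit of these groups alone, 1287 without FGF-ESC replicate 2, 374 without ESC replicate 1, 400 without ESC replicate 2 and 2087 without the fold minimum. Without it, the counts were 2692 in FGF-ESC against EpiSC (990 with it), 4984 in FGF-ESC against ICM (2011), 2584 in EpiSC against ESC (1001), 4488 in ESC against ICM (1548) and 5219 in EpiSC against ICM (2078), with 1256 genes higher and 831 lower in FGF-ESC than in ESC, against 717 and 127 with it. The deviations of same-numbered arrays from their group means correlated at -0.086 to 0.042 over tested genes. No deviation common to them showed over all genes, but these values cannot tell whether such arrays were handled together. With the replicate block, 6, 3, 8, 3, 1 and 3 of the 9 genes passed in FGF-ESC against ESC, EpiSC and ICM, EpiSC against ESC, ESC against ICM and EpiSC against ICM. The calls not made with the replicate block were Junb (adjusted p = 0.0724) and Atf3 (0.0608) in FGF-ESC against ESC and Jun (0.055) in FGF-ESC against EpiSC.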

Other observations

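Genes of the other immediate early list also differed between ESC and ICM, and they were looked at after their values were seen. Of 34 tested, 3 were higher in ESC and 6 lower, where 5.82% of all tested genes were higher and 5.57% lower. The lower genes were Phlda1, a growth factor-induced protein (log2 fold change -2.24 ± 0.29, limma adjusted p = 0.000689), the transcription factors Csrnp1 (-1.51 ± 0.33) and Klf6 (-1.05 ± 0.31), the kinase Plk2 (-1.22 ± 0.36), the pseudokinase Trib1 (-1.27 ± 0.19) and the matrix protein Ccn2 (-1.06 ± 0.16). Phlda1 was at 5.62 and 5.24 in ESC and 7.86 and 7.48 in ICM. The higher genes were Gadd45b (2.23 ± 0.31), the phosphatase Dusp1 (1.09 ± 0.22) and Zfp36l1 (1 ± 0.14). The fibroblast markers differed by a median of -0.05 in this comparison. ICM was extracted with another column kit than ESC, and kit and cell type cannot be told apart.

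The probe set shared by Fosl1 and Ccdc85b was at 7.38 and 5.25 in FGF-ESC, 3.28 and 3.85 in EpiSC, 3.41 and 3.27 in ESC and 3.93 and 3.51 in ICM. Only the FGF-ESC arrays were above the median of all values, and the probe set does not say which of the genes this reflects.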
